A study of Rattus norvegicus with 6 samples.

Results

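miR-203 and miR-205 are miRNAs of surface epithelia such as the epidermis and the cornea, and both were counted in small RNA libraries from the lens capsules of Sprague Dawley rat pups. The members were taken by name, as every arm of rat miR-203a, miR-203b, and miR-205 in the count table, which gave 5 of the 910 names. The 5 names were rno-miR-203a-3p, rno-miR-203a-5p, rno-miR-203b-3p, rno-miR-203b-5p, and rno-miR-205, and 2 of them, rno-miR-203a-3p and rno-miR-205, had enough counts to be tested. The study compared 3 control pups given saline with 3 pups of the Na2SeO3 group given sodium selenite at 20 μmol/kg under the skin of the neck on days 3, 5, and 7. Pups were 8 days old when the model was set up, no genetic change is named for either group, and lenses were taken on day 15. Whether the injection days count the experiment or the pups' age is not clear from the sources used here. Each library came from the capsular membrane of 1 lens, so the cells of the capsule and of anything attached to it were sequenced together.

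A miRNA is cut from a hairpin precursor, and bases 2 to 8 of the mature strand, the seed, pair with target mRNAs and lower their translation or stability. miR-203 is known from the outer layers of stratified epithelia, where it represses the progenitor factor Trp63 and accompanies differentiation. miR-205 is known from the basal, dividing layer, and together with the miR-200 family it represses the transcription factors Zeb1 and Zeb2, which otherwise weaken epithelial character. The lens forms from the same surface ectoderm as the corneal epithelium and the epidermis. In corneal epithelium, miR-184 is known to interfere with the repression of Inppl1 by miR-205.

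The mature sequences are shown because the members do not form a seed family and because 4 of the 5 come from one short stretch of DNA. They were taken from RefSeq (build GRCr8), which held all 5, and run from the 5′ to the 3′ end with the seed in capitals.
rno-miR-203a-3p: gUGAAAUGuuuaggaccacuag
rno-miR-203a-5p: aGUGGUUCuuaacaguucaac
rno-miR-203b-3p: uUGAACUGuuaagaaccacugg
rno-miR-203b-5p: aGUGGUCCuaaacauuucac
rno-miR-205: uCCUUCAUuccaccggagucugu
The 5 seeds differ from each other, and no other rat mature sequence in RefSeq carries any of them. The longest unbroken run of bases that rno-miR-203a-3p or rno-miR-205 shares with another rat mature sequence is 8 bases. Mismatches over whole sequences were not counted, so a partner with a few spaced mismatches is not excluded by this.

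The precursors show where these strands lie. The capitals mark the mature arms in the hairpins of Mir203, which gives both arms of miR-203a, and Mir205.
Mir203: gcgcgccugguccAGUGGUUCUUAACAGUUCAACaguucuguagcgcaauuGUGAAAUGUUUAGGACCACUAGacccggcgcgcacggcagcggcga
Mir205: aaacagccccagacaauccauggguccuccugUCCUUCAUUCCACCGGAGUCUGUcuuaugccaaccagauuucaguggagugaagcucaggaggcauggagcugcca
In GRCr8 the gene of miR-203b, Mir3545, lies on the opposite strand over Mir203, between the protein-coding genes Aspg and Kif26a on chromosome 6. The mature rno-miR-203b-3p overlaps rno-miR-203a-5p by 20 bases and is complementary to it over those 20 bases. The strands rno-miR-203b-5p and rno-miR-203a-3p overlap by 20 bases in the same way. On the same strand the longest unbroken run that rno-miR-203a-5p shares with either arm of the other hairpin was 6 bases. How well reads of the 2 genes are told apart depends on the mismatches allowed and on whether the counting kept the strand. Neither is stated in the sources used here. Mir205 stands alone on chromosome 13, inside no other annotated gene, with Camk1g and Plxna2 as the nearest protein-coding genes.

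The libraries held between 663096 and 2829903 counts on miRNA names, with fewer in every Na2SeO3 library than in every control library. This was not sequencing depth alone. By the study's raw reads, miRNA names took a smaller share of the reads in every Na2SeO3 library than in every control library. The reason for that smaller share was not tested. A miRNA had to reach 1.06 to 4.52 CPM (the counts-per-million scale) of the library total to have 3 counts, the floor used here. Molecular identifiers are not mentioned in the sources used here, so reads cannot be taken as independent molecules. This floor and the counting intervals therefore hold for counting error alone. Levels are given as CPM after TMM scaling, which assumes that the bulk of the miRNAs is level between libraries, unless another scale is named. The tests are edgeR's quasi-likelihood tests, adjusted by Benjamini-Hochberg over the 341 names tested. A DEmiRNA is a name under an adjusted p of 0.05 whose log2 fold change exceeded 1 in size.

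The arm rno-miR-203a-3p, the main product of Mir203, was lower in the Na2SeO3 group. It was counted 11250, 7397, and 5390 times in control libraries 1 to 3, while the 3 treated libraries held 1130, 1698, and 1495 of its reads. Its levels were 3886, 3826, and 3488 CPM in the control group and 1645, 1541, and 1644 CPM in the Na2SeO3 group. Every Na2SeO3 library lay below every control library, and the spread within each group was small beside the gap. The group means were 3733 ± 215 and 1610 ± 59.7 CPM (SD, n = 3 each). The log2 fold change was -1.21 (standard error 0.15, 95% interval -1.53 to -0.90, adjusted p = 4.86e-05, edgeR's quasi-likelihood test), a level 2.32-fold lower, and rno-miR-203a-3p was a DEmiRNA. Counting error was 0.943% to 2.97% of the value in a library, below the spread between libraries with TMM. As CPM of the library totals, the Na2SeO3 libraries spread by only 1.69% of their mean (SD), less than their counting error.

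The level of rno-miR-205 was lower as well, with more spread among the treated animals. Control libraries 1 to 3 held 3745, 2612, and 2005 of its reads, and the 3 treated ones held 420, 937, and 548. After scaling these were 1294, 1351, and 1298 CPM in the control group and 612, 851, and 603 CPM in the Na2SeO3 group. The control libraries lay close together, Na2SeO3 library 2 stood above the other two treated libraries, and the groups did not overlap. On average it was at 1314 ± 32.0 CPM in control and 688 ± 140.6 CPM in treated libraries (SD, n = 3 each). The log2 fold change was -0.93 (standard error 0.17, 95% interval -1.30 to -0.56, adjusted p = 0.00122, edgeR), a level 1.91-fold lower, which passed the test but fell short of the fold change threshold for a DEmiRNA. Without Na2SeO3 library 2 it was -1.11 (adjusted p = 5.91e-04, edgeR), past that threshold.

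**Figure D1:**
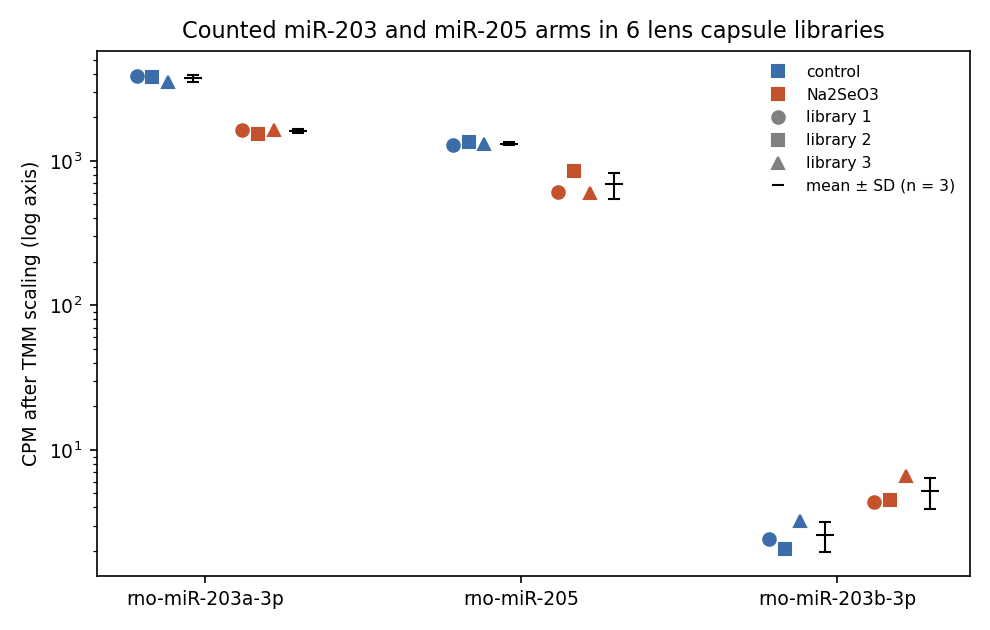
Level of the 3 members counted in every library, as CPM after TMM scaling on a log axis, with a point for each library (circle, square, and triangle for libraries 1 to 3) and the mean and SD of 3 libraries beside them. For rno-miR-203a-3p and rno-miR-205 the Na2SeO3 libraries lie below the control libraries, and rno-miR-203b-3p, which rests on 3 to 7 counts a library, lies near 2 to 7 CPM, where its order depends on the scale.

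Both tested members were thus lower at an adjusted p-value of 0.05, as were 13.8% of the 341 names tested. One of the 2 was a DEmiRNA lower in the Na2SeO3 group, against 4.99% of all names, and both were among the 21.1% of names whose Na2SeO3 libraries all lay below the control libraries. By log2 fold change, rno-miR-203a-3p was the 12th lowest and rno-miR-205 the 20th lowest of the 341. Both are well-counted miRNAs of this tissue. By mean level, rno-miR-203a-3p ranked 33rd in the control group and 46th in the Na2SeO3 group, and rno-miR-205 went from rank 49 to rank 68. In bulk libraries, fewer cells of a type and less RNA per cell cannot be told apart.

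**Figure D2:**
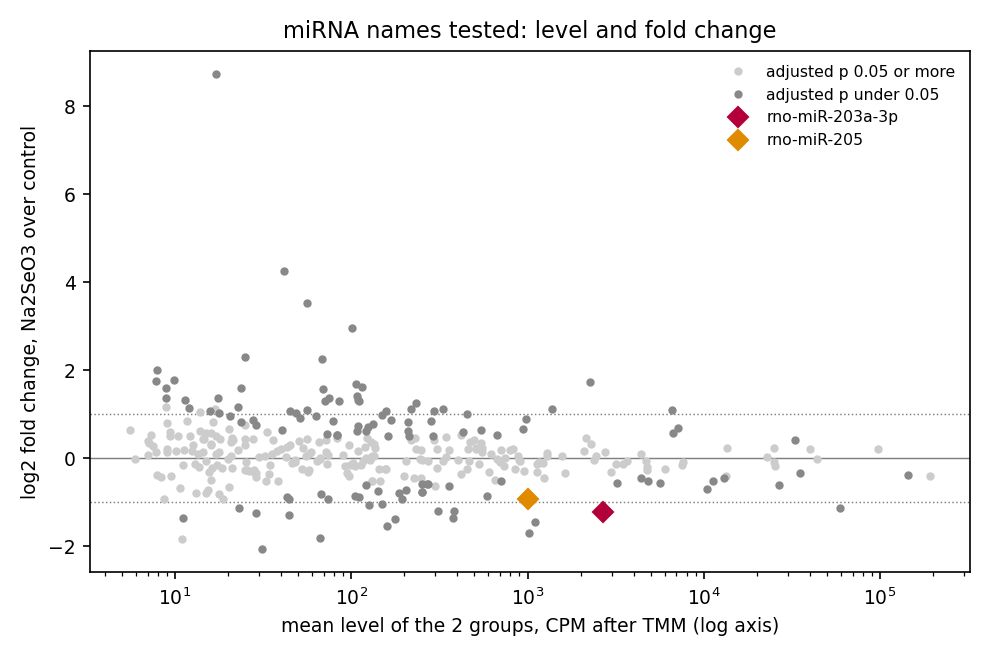
Log2 fold change (Na2SeO3 over control) of the 341 miRNA names tested against their mean level over both groups, in CPM after TMM scaling on a log axis. Dark points are below an adjusted p of 0.05 (edgeR), dotted lines mark a log2 fold change of 1 in either direction, and the diamonds show rno-miR-203a-3p at -1.21 and rno-miR-205 at -0.93.

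The size of both falls depended on what the counts were set against, while the direction did not change under any scaling tried. With DESeq2 size factors, the upper quartile, or library size only as the scale, the log2 fold change of rno-miR-203a-3p ranged from -1.30 to -1.03 and that of rno-miR-205 from -1.02 to -0.73. Per raw read, counting all reads of a library and not only those on miRNA names, the values were -2.39 and -2.07. The raw reads of each library were taken from the study's sequencing summary and are used here as a scale only. On that scale rno-miR-203a-3p went from 1094 ± 428.8 to 207.9 ± 18.0 CPM of raw reads (SD, n = 3 each), and rno-miR-205 from 380.3 ± 127.8 to 90.7 ± 30.7 (SD, n = 3 each). The median log2 fold change of all names tested moved from 0.08 with TMM to -1.07 per raw read. Relative to that median, rno-miR-203a-3p lay between -1.33 and -1.29 and rno-miR-205 between -1.01 and -0.99 under the 5 scalings. A scaling shifts all names of a library alike, so these distances are nearly fixed and do not test the falls.

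**Figure D3:**
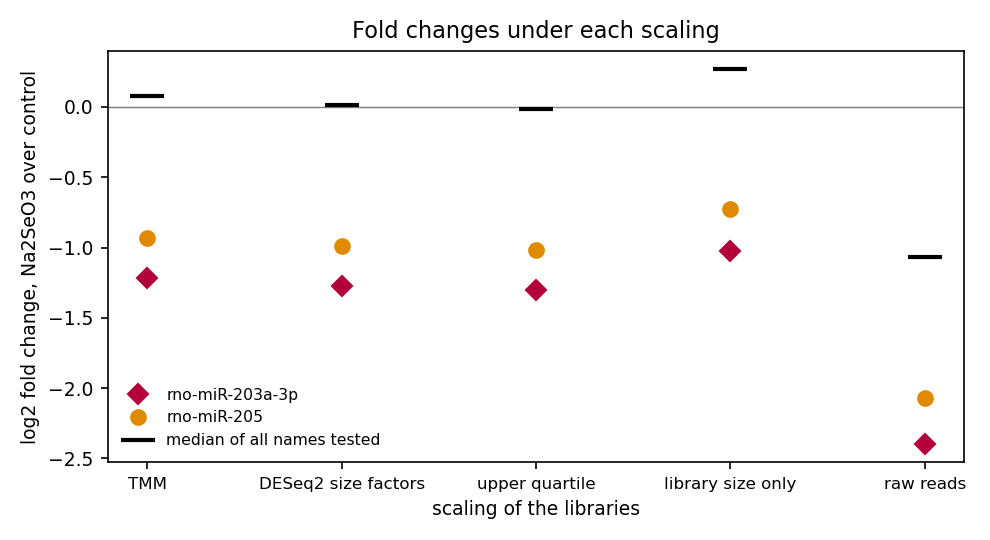
Log2 fold change (Na2SeO3 over control) of rno-miR-203a-3p and rno-miR-205 under 5 ways to scale the libraries, with the median of the 341 names tested as a bar. Both miRNAs lie below 0 under each scaling. Their distances from the median, -1.33 to -1.29 and -1.01 to -0.99, hardly change because a scaling shifts all names nearly alike.

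Of the remaining 3 members, 2 were counted at or near the floor and 1 was not counted. The passenger arm rno-miR-203a-5p had 0, 1, and 2 counts in control libraries 1 to 3 and 0 in each Na2SeO3 library. Over the control libraries it made up 3 of the 24040 counts of both miR-203a arms, 0.0125% (exact binomial 95% interval 0.00257% to 0.0365%). In the Na2SeO3 libraries it was 0 of 4323, which allows a share of up to 0.0694% by the 3-count floor and up to 0.0853% by the exact 95% interval. The 3p arm therefore carried nearly all counts of the miR-203a hairpin in both groups, and a difference in arm use was not detectable at this depth. The arm rno-miR-203b-5p had no count in any library.

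The antisense product rno-miR-203b-3p was counted 7, 4, and 5 times in the control libraries and 3, 5, and 6 times in the Na2SeO3 libraries. Relative to the library totals these were 2.47, 1.93, and 2.77 CPM, and 4.52, 5.16, and 6.84 CPM. On that scale every treated library lay above the control libraries (exact permutation test, two-sided, p = 0.1, n = 3 each), the reverse of the order of rno-miR-203a-3p, though not per raw read. The counting intervals of single libraries overlapped widely, from 0.995 to 5.10 CPM in control library 1 and from 0.933 to 13.2 CPM in Na2SeO3 library 1. Per raw read that order was lost, since the groups overlapped at 0.733 ± 0.238 and 0.665 ± 0.143 CPM of raw reads (SD, n = 3 each). Tested without a filter on low counts, its log2 fold change was 0.92 (standard error 0.68, adjusted p = 0.431, edgeR). The log2 ratio of rno-miR-203a-3p to rno-miR-203b-3p within a library, 1 of 5 ratios chosen after seeing the data, was 10.4 ± 0.40 in the control group and 8.15 ± 0.27 in the Na2SeO3 group (SD, n = 3 each). These did not overlap (exact permutation test, two-sided, p = 0.1, adjusted p = 0.333 over 10 ratios).

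A ratio of 2 miRNAs within a library does not depend on how the libraries are scaled, and 10 such ratios were computed with 0.5 added to each count. With 3 libraries against 3, the exact permutation test cannot go below p = 0.1. The count of rno-miR-205 was 33.3%, 35.3%, and 37.2% of that of rno-miR-203a-3p in control libraries 1 to 3, and 37.2%, 55.2%, and 36.7% in Na2SeO3 libraries 1 to 3. Apart from Na2SeO3 library 2 these shares lay close together, and the groups overlapped. The log2 ratio was higher by 0.26 in the Na2SeO3 group (exact permutation test, two-sided, p = 0.3, adjusted p = 0.5 over 10 ratios), and without Na2SeO3 library 2 the difference was 0.07. A difference in the falls of the 2 members was therefore not shown.

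Other miRNAs known from epithelia were read from a list of 17 names, made up of both arms of the miR-200 family, the miR-183 cluster, miR-184, and miR-31a, of which 13 could be tested. The list split by gene. Of the 13, 8 were lower at an adjusted p-value of 0.05 and the other 5 did not pass, against 47 lower and 71 higher of the 341 names tested. Over all names that split was 30 lower and 97 higher with library size only, and 208 lower and 6 higher per raw read. The median log2 fold change was -0.87 for the list and 0.08 for all names tested. As a sum, the list did not fall. It took 226370 to 244363 CPM of the library totals in the control group. In the Na2SeO3 group it took 233840 to 254336 CPM, and the groups overlapped (exact permutation test, two-sided, p = 0.4). The 8 were miR-184, both arms of miR-31a, and 5 of the 6 tested arms of the miR-200 family, whereas the 4 tested arms of the miR-183 cluster did not pass. The epithelial list was written with earlier results of these data known, so its count describes these libraries and is no independent evidence.

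The lens and cornea miRNA miR-184 was at 81459 ± 6586 CPM in the control group and at 37254 ± 3194 CPM in the Na2SeO3 group (SD, n = 3 each). Its log2 fold change was -1.13 (edgeR, adjusted p = 3.48e-05). In the miR-200 family, which guards epithelial character against Zeb1 and Zeb2, the largest fall of the list was that of rno-miR-200b-3p, with a log2 fold change of -1.45 and means of 1613 ± 187 and 590 ± 50.5 CPM (SD, n = 3 each). The log2 fold changes of rno-miR-200a-3p, rno-miR-200c-3p, and rno-miR-429 were -1.19, -0.78, and -0.84, and each passed (highest adjusted p = 0.00506, edgeR). For rno-miR-141-3p the control libraries held 17 to 35 counts and the Na2SeO3 libraries 2 to 8, and its value of -0.91 did not pass (adjusted p = 0.155, edgeR) and was -0.52 without Na2SeO3 library 3. The family has a pair of seeds, shown by rno-miR-141-3p and rno-miR-200c-3p, which differ from those of miR-203a-3p and miR-205.
rno-miR-141-3p: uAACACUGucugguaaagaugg
rno-miR-200c-3p: uAAUACUGccggguaaugaug
rno-miR-184: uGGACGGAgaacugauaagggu
rno-miR-31a-5p: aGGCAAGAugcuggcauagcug
None of these 4 strands shares its seed with a member.

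The skin and cornea miRNA miR-31a was the other surface epithelium marker on the list. Its 5p arm was at 151.3, 134.0, and 145.0 CPM in the control libraries and at 64.1, 71.7, and 99.0 CPM in the Na2SeO3 libraries. The groups did not overlap, and the log2 fold change was -0.87 (standard error 0.20, adjusted p = 0.0051, edgeR). Its 3p arm, at 8 to 70 counts a library, had a log2 fold change of -1.13 (adjusted p = 0.0294), and this call was lost in 7 of 14 alternatives, with the highest adjusted p of 0.176 without control library 3. The call was also lost without control library 1 (0.0585), control library 2 (0.0906), Na2SeO3 library 1 (0.0602), or Na2SeO3 library 3 (0.128; all adjusted p, edgeR). The miR-183 cluster, known from sensory cells and abundant in these libraries, did not pass the test with TMM, and its calls and their direction depended on the scaling. The log2 fold changes of rno-miR-183-5p, rno-miR-96-5p, and rno-miR-182 were 0.21, -0.02, and 0.21 (lowest adjusted p = 0.236, edgeR), and that of rno-miR-183-3p, the largest of the list, was 0.47, with 0.089 without Na2SeO3 library 3 and 0.82 without control library 2. That of rno-miR-183-5p was 0.12 without Na2SeO3 library 1. With library size only, rno-miR-182 and rno-miR-183-5p were called higher (adjusted p = 0.0158 and 0.0184, edgeR). Per raw read rno-miR-183-5p, rno-miR-96-5p, and rno-miR-182 were called lower (highest adjusted p = 0.00157, edgeR) at -0.95, -1.11, and -0.90, near the median of all names on that scale.

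**Figure D4:**
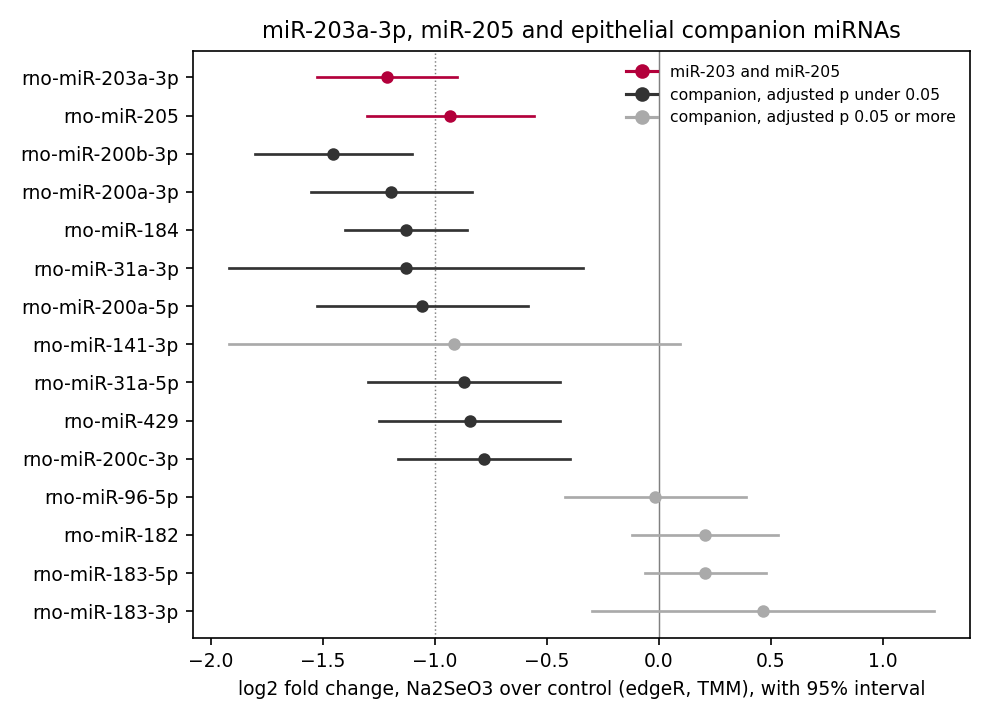
Log2 fold change (Na2SeO3 over control, TMM scaling) with its 95% interval for rno-miR-203a-3p, rno-miR-205, and the 13 tested arms of the epithelial list. The 8 dark companions, from -1.45 to -0.78, passed an adjusted p-value of 0.05, and the 4 arms of the miR-183 cluster lie between -0.02 and 0.47 here, at or below -0.68 per raw read.

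Set against the companions that fell, the ratios of both members to miR-184 and to the miR-200 family overlapped between the groups with all libraries. The count of rno-miR-203a-3p was 4.11% to 5.26% of that of miR-184 in the control libraries and 4.03% to 4.72% in the Na2SeO3 libraries. The difference in the log2 ratio was -0.08 (exact permutation test, two-sided, p = 0.6, adjusted p = 0.857 over 10 ratios), and 0.016 without control library 1. Against the summed miR-200 family it was 0.05 (exact permutation p = 0.9), and -0.076 without control library 3. For rno-miR-205 the differences were 0.18 against miR-184 (exact permutation p = 0.7) and 0.31 against the miR-200 family (exact permutation p = 0.2). Without Na2SeO3 library 2 these were -0.0057 and 0.13, and without Na2SeO3 library 1 the second was 0.42 and its groups no longer overlapped (exact permutation p = 0.1). The spread between libraries sets what these ratios can show, and for rno-miR-203a-3p to miR-184 the SD of the log2 ratio was 0.18 in the control group and 0.12 in the Na2SeO3 group. That a member and a companion fell by equal amounts is not shown by these values.

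Against rno-miR-31a-5p, which was chosen after seeing the data, the differences were -0.32 for rno-miR-203a-3p and -0.06 for rno-miR-205 (exact permutation p = 0.2 and p = 0.9). The groups overlapped in both. The first was -0.16 without Na2SeO3 library 3 and -0.47 without Na2SeO3 library 1, where the groups no longer overlapped (exact permutation p = 0.1), and the second changed sign without Na2SeO3 library 3, at 0.20, and without control library 2, at 0.0063. Against the summed miR-183 cluster, also chosen after seeing the data, the groups did not overlap. There rno-miR-203a-3p went from 2.68%, 2.20%, and 1.78% of the cluster's counts to 0.841%, 0.827%, and 0.867%. The differences in the log2 ratio were -1.37 for rno-miR-203a-3p and -1.11 for rno-miR-205 (exact permutation test, p = 0.1 for each, the smallest possible, adjusted p = 0.333 over 10 ratios).

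**Figure D5:**
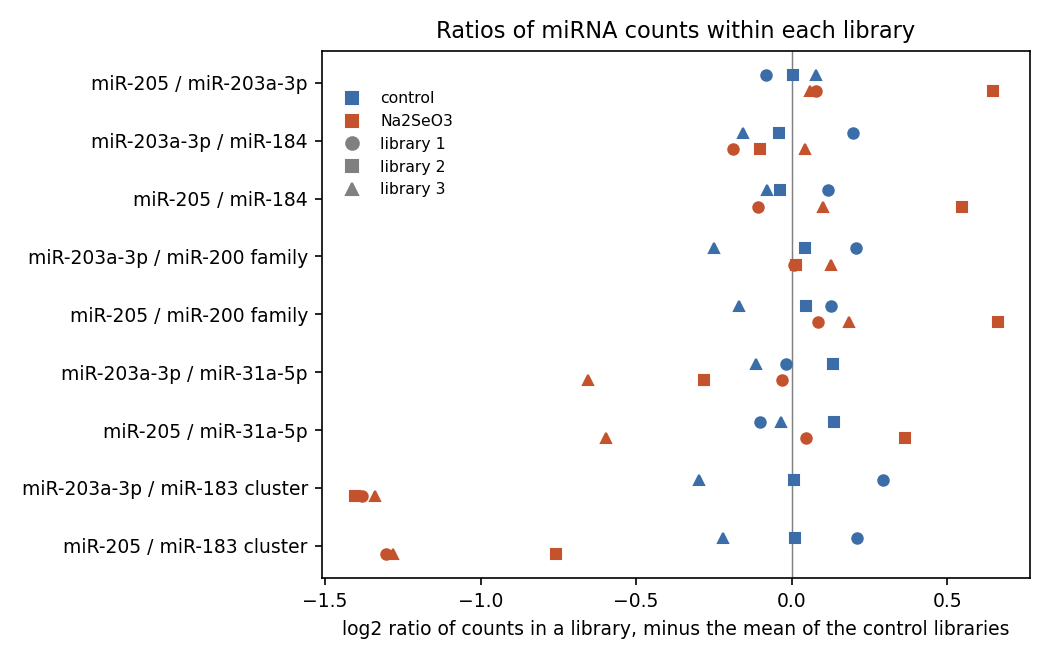
Log2 ratio of counts within each library for 9 pairs of miRNAs or summed groups, set to 0 at the mean of the 3 control libraries. The groups overlap in the 7 ratios between the members, miR-184, the miR-200 family, and miR-31a-5p, and they are apart in both ratios to the miR-183 cluster, at -1.37 and -1.11 on average in the Na2SeO3 group.

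The miRNAs whose profile over the 6 libraries was most like that of each member were found by the root mean square difference of log2 CPM, each name centred on its own mean, among 325 other rat names. For rno-miR-203a-3p they were rno-miR-184 (0.13), rno-miR-29b-3p (0.14), and rno-miR-200a-3p (0.17), followed by rno-miR-132-5p at 0.20 and then by rno-miR-200b-3p at 0.21, beside a median of 0.69 over all the others. The first and the 2 miR-200 arms are on the epithelial list, while miR-29b is known for repressing collagens and miR-132 for its response to CREB. For rno-miR-205 they were rno-miR-222-3p (0.12), rno-miR-145-3p (0.13), rno-let-7f-2-3p (0.15), rno-miR-145-5p (0.16), and rno-miR-148a-5p (0.17), beside a median of 0.58. None of these is on the epithelial list, and miR-145 is a miRNA of smooth muscle and mesenchyme. The 2 members ranked 9th in each other's order, at 0.24. All 10 had a negative log2 fold change, from -1.53 to -0.71, and rno-let-7f-2-3p did not pass (adjusted p = 0.0870, edgeR). The call of rno-miR-145-3p (adjusted p = 0.0101, edgeR) was lost with library size only (0.0614) and without control library 1 (0.0523) or control library 3 (0.0531). The measure follows the group difference and the scatter of 6 libraries alike, and with so few points it is a description.

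The lens list was miR-184, miR-204, and miR-26, which were counted in every library. Since miR-184 is also a miRNA of the cornea, their presence alone does not establish lens identity. The miR-183 cluster, known from sensory cells, was in none of the cell lists that follow. The sums that follow are CPM of the library totals over both arms of each list, and the calls are those with TMM. The lens list took 122184 to 136157 CPM in the control group and 80984 to 94269 CPM in the Na2SeO3 group. Of its 5 tested names 2 were lower, miR-184 among them, beside 13.8% of all names. The median log2 fold change of the 5 was -0.33, and miR-184, already given above, held much of the sum. The surface epithelium list held miR-203a, miR-203b, miR-205, and miR-31a, with 6 of its 7 names counted. It took 4260 to 5480 CPM against 2420 to 2833 CPM. Its 4 tested names, the 2 members and the 2 arms of miR-31a, were lower, beside 13.8% of all names. Most of this sum came from the 2 members, so it largely restates their values and is no separate support. Per raw read both sums were also lower in each Na2SeO3 library, and 5 of 5 and 4 of 4 tested names were called lower, beside 61.0% of all names on that scale.

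Markers of other cells were present, and some moved with the groups. Muscle miRNAs, 10 of 14 counted, took 6987 to 8208 CPM in the control group against 14995 to 15370 CPM, and 4 of their 6 tested names rose with TMM, beside 20.8% of all names, with rno-miR-206-3p a DEmiRNA. Per raw read these 4 calls were lost and 1 muscle name was called lower. The names of that list at 0 were rno-miR-1-5p, rno-miR-133b-5p, rno-miR-208a-5p, and rno-miR-208b-5p. Erythroid miRNAs, with 4 of 5 counted and rno-miR-451-3p at 0, took 219 to 285 CPM against 418 to 537 CPM, and 1 of 3 tested names rose, beside the same 20.8%. Neural and retinal miRNAs, 12 of 12 counted, took 36443 to 36904 CPM against 46844 to 53335 CPM, while 3 of their 8 tested names were lower and 1 was higher, beside 13.8% lower and 20.8% higher of all names. These 3 sums were higher in each Na2SeO3 library as shares of the totals, but per raw read the muscle and erythroid sums overlapped between groups and the neural sum was lower. On that scale the erythroid call was lost and 1 of its 3 tested names was called lower, and 8 of 8 neural names were called lower, beside 61.0% of all names. Summed levels overlapped for leukocyte miRNAs (10 of 10 counted; 1002 to 1080 against 873 to 1168 CPM) and for pigment epithelium miRNAs (2 of 2 counted; 4033 to 5289 against 4147 to 5123 CPM) as shares of the totals. Vascular and mesenchymal miRNAs, 9 of 11 counted, overlapped at 53080 to 61790 against 56487 to 58948 CPM, and 3 of 9 tested names were lower, beside 13.8% of all names. Per raw read the leukocyte, pigment epithelium, and vascular sums were lower in each Na2SeO3 library, with 5 of 6, 2 of 2, and 9 of 9 tested names called lower, beside the 61.0% of all names. The part of these other cells in the lower levels of miR-203a-3p and miR-205 was not tested.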

How the data were processed

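Small RNA of 3 control and 3 Na2SeO3 lens capsules was sequenced. The authors removed adapters and low-quality bases (Cutadapt, Fqtrim), inspected quality (FastQC), compared the reads with an Ensembl rat reference (miRDeep and HISAT2 are named), and deposited raw read counts per miRNA name, without normalization or pooling. The genome build and tool versions are not given in the sources used here, so no coordinates are given. Columns were matched to libraries by title (WT is control, Model is Na2SeO3). Per the study's methods each library is a separate animal, and since litters are not given, p-values measure the spread between these animals.

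Names were filtered with filterByExpr (minimum count 10), scaled with TMM, and tested across all 341 names with edgeR 4.0.16 in R 4.3.3 (quasi-likelihood test, no block, Benjamini-Hochberg adjustment). Alternatives were DESeq2 1.42.0, other scalings (size factors, upper quartile, library size, raw reads), other filters, rat names only, a replicate block, and leaving out each library. The procedure was tested on simulated data, with changes drawn up or down at random. A shift of most names in a group, as seen per raw read, was not simulated. Log2 CPM used a prior count of 2. No pair of libraries had counts within sampling noise (chi-square at least 28.0 times its degrees of freedom). Members and lists were chosen with earlier results of these data known. Beside the members, names were taken by rule: miR-184, miR-200 family 3p arms with miR-429, the extremes of the epithelial list, and the 5 closest profiles; miR-31a, the miR-183 cluster, and rno-miR-206-3p were added after their values were seen. RefSeq held mature sequences for 686 of 763 rat names, not rno-miR-200a-3p, rno-miR-200b-3p, or rno-miR-429. The mRNA libraries are not analysed here.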

Additional observations from a re-analysis of the deposited data

How the results depend on the processing

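The log2 fold changes of rno-miR-203a-3p and rno-miR-205 kept their direction and an adjusted p-value under 0.05 in all 15 alternatives, with highest adjusted p of 0.00354 and 0.0178 (edgeR). An absolute value over 1 was reached in all 15 by rno-miR-203a-3p and in 4 by rno-miR-205. With each library left out in turn they ranged from -1.26 to -1.18 and from -1.11 to -0.85, and DESeq2 gave -1.27 and -0.99. Same-numbered libraries come from different animals and their deviations correlated at -0.17, -0.18, and -0.26, so the numbers do not pair them. Under the replicate block they were -1.21 and -0.95, 97 names passed, and 8 of the epithelial list. That list gave 7 to 12 calls in either direction over all alternatives, the highest per raw read. Over all names, 118 passed (47 lower), 214 per raw read (208 lower), 127 with library size only (30 lower), 110 with DESeq2 (56 lower), and 73 to 128 with a library left out (73 and 75, of which 28 and 26 lower, without control libraries 2 and 3). DEmiRNAs numbered 56 (17 lower), 54 with the upper quartile (22 lower), 63 with library size only (10 lower), and 182 per raw read (176 lower). Without control library 1, rno-miR-182 was at 0.052. Signs turned per raw read for rno-miR-182 (-0.90), rno-miR-183-5p (-0.95), and rno-miR-183-3p (-0.68), and for rno-miR-96-5p with library size only (0.20) and without control library 3 (0.20), Na2SeO3 library 1 (0.044), or Na2SeO3 library 3 (0.083), with a range of -0.20 to 0.20 over the libraries left out. With a library left out, the difference in the log2 ratio to miR-184 ranged from -0.16 to 0.016 for rno-miR-203a-3p and from -0.0057 to 0.32 for rno-miR-205. The difference for rno-miR-203a-3p to the miR-200 family ranged from -0.076 to 0.15, that for rno-miR-205 to the same family from 0.13 to 0.42, and that for rno-miR-205 to rno-miR-31a-5p from -0.28 to 0.20 (0.0063 without control library 2). Why these changed was not tested. Summing in names of other species could not be run, since 0 of them hold miR-203 or miR-205, and the rarer arms could be tested only without a filter, where rno-miR-203a-5p was at -2.93 (standard error 2.58, adjusted p = 0.521, edgeR). Depth limits what can be said of arms under 10 counts.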
